A study of Homo sapiens with 6 samples.

Results

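The genes described here build, copy and reshape the mitochondrion: the nuclear factors that switch on its genes, the enzymes that transcribe and copy its own genome, the proteins that fuse and divide its membranes, and those that hold its quality. Members were chosen by symbol from a list of 36 genes in 7 role groups, and all 36 were found among the 34644 gene symbols of the tables, which list 38648 genes when each place in the genome is counted. RNA sequencing was carried out in HPC, a human podocyte line, the podocyte being the epithelial cell whose foot processes cover the filtering capillaries of the kidney. Wild-type HPC cells in high glucose carried 1 of 2 lentiviruses, a control (NC) or one that overexpresses PRDM16, a zinc finger transcription factor best known from brown fat, and the titles give 24 h for every sample. Each group had 3 libraries. Both groups share the high glucose, so the comparison is of PRDM16 with NC lentivirus within high glucose, and no normal glucose sample was analysed here. All samples are of 1 line, and neither the glucose concentration nor the promoter of the lentivirus is given in the sources used here. Separate cultures are not stated for the libraries of a group, and the p-values therefore reflect the spread among these 6 samples alone, part or all of which may be technical.

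Mitochondria hold a small circular genome, and nearly all the proteins that copy, transcribe and maintain it are encoded in the nucleus. The nuclear factors NRF1 and GABPA bind the promoters of many of these genes, and the nuclear receptor ESRRA acts with the coactivator PPARGC1A on genes of oxidative metabolism. Fusion by the mitofusins and OPA1 and division by DNM1L and its adaptors set the shape of the network.

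Stretches of the promoters with a motif of NRF1 or of GABPA are shown first, because these 2 regulators are themselves members and because the genes shown reach from the lower to the higher end of the fold changes. Each stretch is 60 bases, read 5′ to 3′ on the strand of the gene, and capitals mark the motif. The first 5 hold the NRF1 motif.
TFAM: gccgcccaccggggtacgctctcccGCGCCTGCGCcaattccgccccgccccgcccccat
TFB1M: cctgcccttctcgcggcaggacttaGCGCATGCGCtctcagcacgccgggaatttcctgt
POLRMT: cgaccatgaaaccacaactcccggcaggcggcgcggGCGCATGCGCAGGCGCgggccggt
ESRRA: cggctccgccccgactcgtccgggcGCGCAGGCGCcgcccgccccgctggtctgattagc
OPA1: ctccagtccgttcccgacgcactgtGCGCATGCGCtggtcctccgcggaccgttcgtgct
The next 3 hold the GABPA motif.
GABPA: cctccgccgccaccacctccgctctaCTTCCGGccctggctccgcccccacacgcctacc
MFN1: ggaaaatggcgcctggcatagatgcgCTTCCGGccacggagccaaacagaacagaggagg
FIS1: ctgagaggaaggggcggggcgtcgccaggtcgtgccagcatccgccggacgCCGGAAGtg

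In GRCh38.p14 coordinates these stretches are chr10:58385322-58385381 on the plus strand (TFAM), chr6:155314582-155314641 on the minus strand (TFB1M), chr19:633538-633597 on the minus strand (POLRMT), chr11:64305406-64305465 on the plus strand (ESRRA) and chr3:193593089-193593148 on the plus strand (OPA1). Those with the GABPA motif are chr21:25734880-25734939 on the plus strand (GABPA), chr3:179347620-179347679 on the plus strand (MFN1) and chr7:101245082-101245141 on the minus strand (FIS1). They come from RefSeq, which gave a promoter for 28 of the 36 members, and the 250 bases before each start were searched on both strands. The NRF1 motif, which is GCGCA and GCGC with any 1 base between them, was found in 8 of the 28 promoters (28.6%), against 9.83% of the promoters of tested genes and 5.53% of all 27305 promoters. Its carriers were TFAM, TFB1M, POLRMT, ESRRA, OPA1, OMA1, POLG2 and CLPX. In POLRMT, 2 matches overlap each other and are capitalised as 1 run. The GABPA motif, spelled CCGGAAG, was found in 12 of the 28 (42.9%), against 15% of the promoters of tested genes and 8.82% of all. TFB1M, POLRMT and POLG2 held both motifs at separate places. A motif of YY1, spelled AAGATGGC, was in the promoters of MGME1 and SLIRP (7.14%, against 1.81% of tested genes), and the letters AAGGTCA, a motif of ESRRA, were in none of the 28 windows (2.3% of tested genes). A match is a run of letters and was not measured as binding.

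The libraries held between 20147135 and 41280350 gene counts, and 15381 genes passed the filter on low counts, all 36 members among them. PRDM16 itself had 0 counts in each NC library and 11, 18 and 24 counts in the PRDM16 libraries (edgeR adjusted p = 7.7e-04). In CPM (counts scaled to the size of the library) the PRDM16 libraries had 0.573, 0.646 and 0.574. This level is low, below that of every member in every library. The second NC library was the highest or the lowest of the 6 for 66.3% of all genes tested, so results are also given without it. Of 10 podocyte markers, 5 had at least 10 counts in every library, and PODXL had between 2279 and 4445. NPHS1, WT1 and PTPRO, which are markers of the mature podocyte, had at most 4 counts in any library. Renal tubule markers summed to between 0.695 and 1.43 CPM. The mesangial or fibroblast markers summed to between 367 and 444 CPM in NC and between 371 and 415 CPM in PRDM16 libraries, and the endothelial ones to between 2.14 and 2.58 and between 2.18 and 2.91 CPM. Immune markers summed to between 141 and 162 CPM in NC and between 173 and 179 CPM in PRDM16 libraries, nearly all of it from CD68, while PTPRC had at most 22 counts and CD3E had 0. Which cells the CD68 counts came from was not tested. In such bulk samples fewer cells of a type and less RNA per cell cannot be told apart.

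The members covered a wide range of levels. The TPM scale divides by the listed length of each gene, so that levels of different genes can be set side by side. On it the prohibitin PHB2 had the highest mean over the 6 libraries at 504.1 TPM, higher than 98.2% of all genes tested. It was followed by its partner PHB at 331 TPM, the fission adaptor FIS1 at 315 TPM, the matrix protease LONP1 at 214 TPM and the mitofusin MFN2 at 166 TPM. The ranges of PHB and FIS1 over the libraries overlapped, so their order was not resolved, while PHB2 stood clear of PHB. LONP1 was above MFN2 by little, its lowest value being 184.4 TPM and the highest of MFN2 183.8 TPM. At the low end were the transcription factor relatives TFB1M at 5.17 TPM, MTERF4 at 3.85 TPM and MTERF2 at 1.74 TPM, and the adaptor MIEF2 at 2.49 TPM. These values depend in part on the listed length, 9819 bases for TFB1M, 11389 for MTERF4 and 7402 for MTERF2. In CPM, TFB1M and TFB2M were near each other, with NC means of 19.3 and 18.9. TFB2M, with a listed length of 1784 bases, had 28.4 TPM. Among the nuclear regulators, ESRRA had 44.0 TPM, GABPA 15.3 TPM and NRF1 12.03 TPM. Added up, the 36 members made between 2461 and 2538 TPM in every library, with the NC and PRDM16 ranges overlapping.

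**Figure D1:**
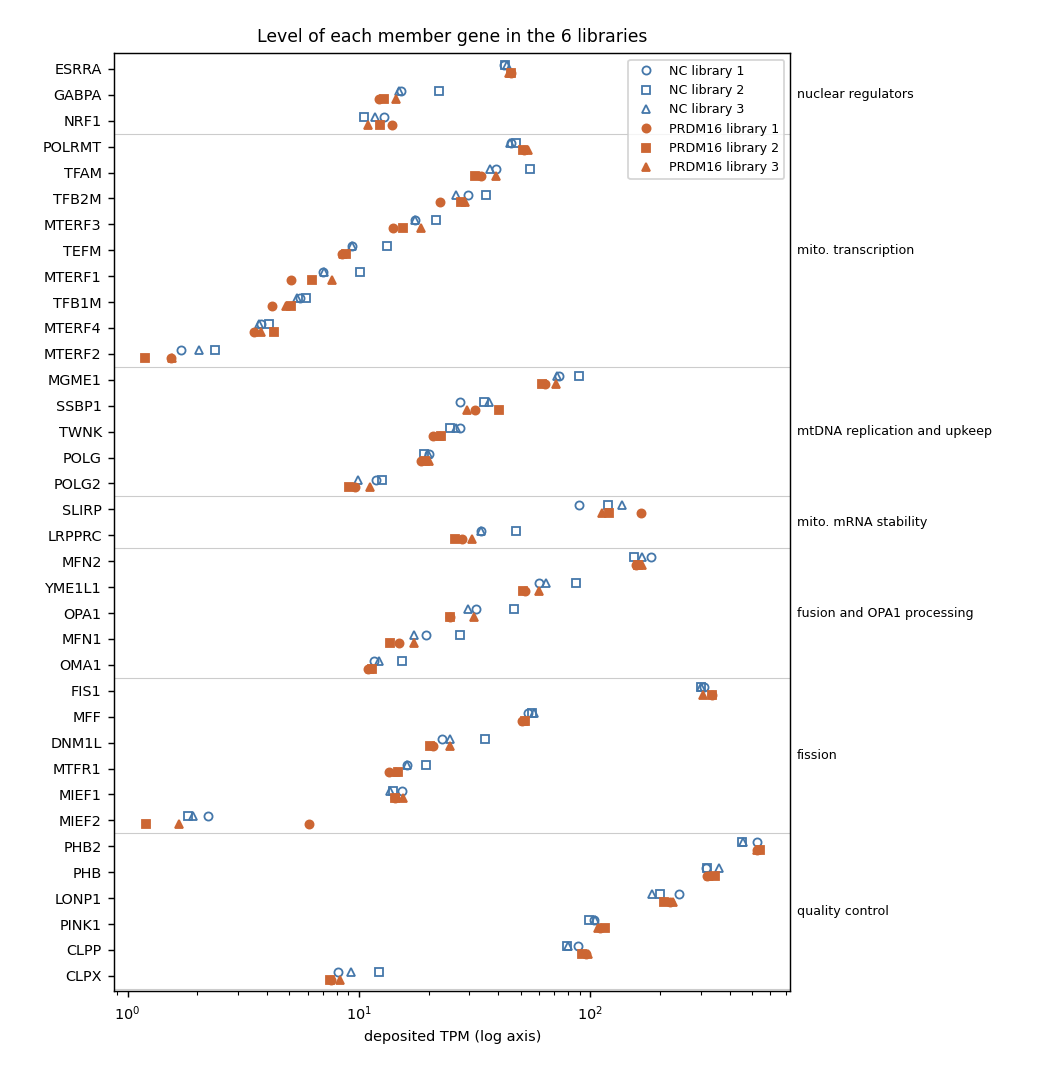
Deposited TPM of each of the 36 members in each of the 6 libraries on a log axis, by role and then by mean level, with open symbols for NC and filled ones for PRDM16 libraries. Levels run from a mean of 1.74 TPM for MTERF2 to 504.1 TPM for PHB2, and the spread between libraries is small beside the spread between genes except for MIEF2.

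No member passed an adjusted p of 0.05 between PRDM16 and NC lentivirus in edgeR (0 of 36), and few genes did anywhere (0.065% of all tested, 0.0585% higher and 0.0065% lower). Among the main listings of the members the smallest adjusted p was 0.287, for the protease subunit CLPP, and a second listing of SSBP1, described below, had 0.222. At an unadjusted p under 0.05 there were 9 members (25%), against 16% of all genes tested. Of these, 5 were higher with PRDM16, against 9.23% of all genes, and 4 were lower, against 6.76%. By DESeq2 and limma-voom the adjusted count of members was also 0, with 8 and 7 at an unadjusted p under 0.05. Log2 fold changes of PRDM16 over NC were above 0 for 17 members and below 0 for 19, against 46.9% above 0 among all genes, with a median of -0.07 against -0.02 for all genes. The groups did not overlap for 8 members (22.2%), against 21% of all genes, a share near that background. Higher without overlap were 5, POLRMT, MIEF1, PINK1, PHB2 and CLPP, against 12.2% of all genes, and lower were 3, GABPA, LRPPRC and MFN1, against 8.77%.

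The scale bears on these counts. On the deposited TPM scale the median log2 ratio of PRDM16 to NC was -0.16 over all genes tested, a shift of the whole table, and -0.21 over the members. There 12 members were above 0 and 24 below (33.3% above, against 30.2% of all genes), in place of 17 and 19 in the fit. MTERF4, POLG, MFN2, MFF and PHB lay on the other side of 0 from the fit. Groups did not overlap in TPM for 4 higher members (ESRRA, POLRMT, PINK1 and CLPP, 11.1% against 4.62% of all genes) and for 12 lower members (33.3% against 17.3%). POLRMT, PINK1, CLPP, GABPA, LRPPRC and MFN1 were apart, in the same direction, on both scales, and MIEF1 and PHB2 were apart in CPM alone. Differences below are in CPM unless TPM is named.

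The differences were small and most were well bounded. The 95% interval of the fold change lay within 1.5-fold in either direction for 32 of the 36 members, against 64.8% of all genes, and within 2-fold for 35 of 36, against 89.8%. The 4 members with wider intervals were MTERF2, SLIRP, MFN1 and MIEF2. Without the second NC library, 2 members, POLRMT and CLPP, had an unadjusted p under 0.05 (5.56%, against 7.3% of all genes), and 0 passed the adjusted test, against 0.0583%. Log2 fold changes were then above 0 for 17 of 36, against 47.4% of all genes, and their median was 0.00.

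**Figure D2:**
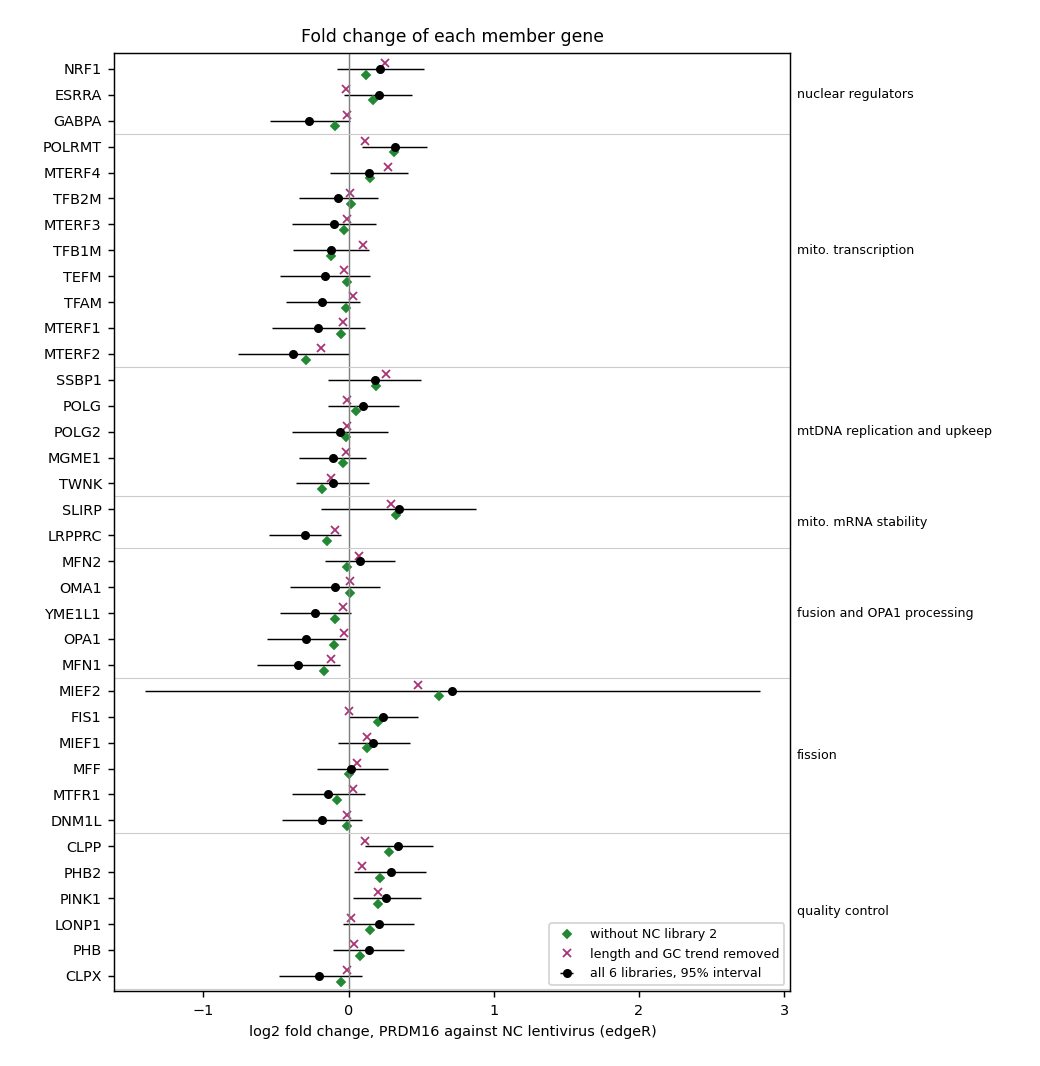
Log2 fold change of PRDM16 over NC for each member with its 95% interval, grouped by role, with the value without the second NC library and the value after the length and GC trend was removed as further symbols. CLPP and POLRMT lie above 0 and MFN1 and LRPPRC below 0 with intervals that leave out 0, and most values move toward 0 without the second NC library.

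The 3 nuclear regulators stood on both sides of 0, and their median log2 fold change was 0.21. GABPA, the DNA-binding subunit of the factor also called NRF2, had 29.3, 40.3 and 30.0 CPM in the NC libraries and 27.0, 27.5 and 28.4 CPM in the PRDM16 libraries. All PRDM16 values lay below all NC values, by little except for the second NC library. The log2 fold change was -0.27 ± 0.13 (SE, n = 3 in each group, edgeR adjusted p = 0.317). It was -0.09 without that library and -0.01 with the length and GC trend removed. ESRRA, the estrogen-related receptor that drives genes of oxidative metabolism, had 52.5, 50.3 and 57.1 CPM with NC and 65.4, 62.9 and 56.7 CPM with PRDM16. The third PRDM16 library lay inside the NC range, and the log2 fold change was 0.21 ± 0.11 (adjusted p = 0.336), or -0.02 with the length and GC trend removed. NRF1, the factor whose motif is shown above, had 16.5, 12.8 and 15.9 CPM with NC and 20.6, 17.7 and 14.4 CPM with PRDM16. The groups overlapped through the third PRDM16 library, with a log2 fold change of 0.22 ± 0.15 (adjusted p = 0.405). For NRF1 it was 0.12 without the second NC library and 0.09 without the first PRDM16 library.

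In the role group named mitochondrial transcription 7 of 9 members had log2 fold changes below 0, with a median of -0.12. None passed the adjusted test. Without the second NC library the median was -0.02, and with the trend removed it was 0.01 with 5 of 9 above 0. The exception with the clearest separation was POLRMT, the RNA polymerase of the mitochondrion (chr19:617221-633557 in hg38, minus strand). It had 71.6, 70.9 and 73.6 CPM with NC and 93.3, 89.6 and 86.2 CPM with PRDM16. The NC values lay close together and all 3 PRDM16 values lay above them. The log2 fold change was 0.32 ± 0.11 (unadjusted p = 0.00755, edgeR adjusted p = 0.288) and 0.31 without the second NC library. TFAM, which packages the mitochondrial genome and starts its transcription, had 69.6, 92.5 and 68.8 CPM with NC and 69.2, 63.3 and 71.5 CPM with PRDM16. Only the second NC library stood away from the other 5, and the log2 fold change of -0.18 ± 0.12 (adjusted p = 0.42) was -0.02 without it. MTERF2, a member of the transcription termination factor family and one of the scarce members, had 4.43, 5.86 and 5.52 CPM with NC and 4.64, 3.45 and 4.11 CPM with PRDM16. The groups overlapped by the first library of each, and the log2 fold change was -0.38 ± 0.18 (unadjusted p = 0.0497, adjusted p = 0.312).

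The other 6 of this group were TFB1M, TFB2M, MTERF1, MTERF3, MTERF4 and TEFM. TFB2M is the factor that melts the mitochondrial promoter, and TEFM is the elongation factor of the polymerase. Their log2 fold changes ran from -0.21 for MTERF1 to 0.14 for MTERF4, and all 6 had overlapping groups. Of MTERF4, 54.5% of the exon bases are shared with SNED1 on the opposite strand, and of MTERF2 15.9% are shared with TMEM263. Whether the counting used strand is not given in the sources used here, so reads of such partners may not be separated.

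Of the genes that copy and keep the mitochondrial genome, 2 of 5 had log2 fold changes above 0, with a median of -0.06. In their main listings 0 of 5 had groups that did not overlap, against 21% of all genes, which for so few genes is near that background. MGME1, an exonuclease that trims replication ends, had 80.9, 93.6 and 83.1 CPM with NC and 81.7, 76.1 and 80.4 CPM with PRDM16 (log2 fold change -0.11 ± 0.11, adjusted p = 0.566, or -0.04 without the second NC library). TWNK, the replicative helicase Twinkle, had 36.2, 30.9 and 36.5 CPM with NC and 32.0, 33.5 and 30.4 CPM with PRDM16 (log2 fold change -0.11 ± 0.12, adjusted p = 0.617). Here the second NC library was low, and without it the log2 fold change was -0.18. The catalytic subunit POLG and the accessory subunit POLG2 of the replicative polymerase had log2 fold changes of 0.10 ± 0.12 and -0.06 ± 0.16.

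SSBP1, which coats single-stranded mitochondrial DNA, is listed at more than 1 place. Its main listing on chromosome 7 had 17.4, 20.9 and 24.4 CPM with NC and 23.4, 28.5 and 19.2 CPM with PRDM16, with overlapping groups and a log2 fold change of 0.18 ± 0.15 (adjusted p = 0.502), or 0.03 without the second PRDM16 library. A second listing on an unplaced or alternate scaffold had 99, 103 and 45 counts with NC and 38, 51 and 75 counts with PRDM16. In CPM the PRDM16 values of this listing were all below the NC values, and the log2 fold change was -0.85 (edgeR adjusted p = 0.222). Reads of near-identical copies can be split between them by the counting, so both values are uncertain. With the listings summed, the log2 fold change of SSBP1 was 0.08.

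LRPPRC and SLIRP form the complex that stabilises mitochondrial messenger RNA, and their values lay on opposite sides of 0. LRPPRC (chr2:43886224-43995989, minus strand) had 79.9, 107.3 and 83.6 CPM with NC and 76.6, 69.0 and 74.9 CPM with PRDM16. All PRDM16 values were below all NC values, and the second NC library was the farthest away. The log2 fold change was -0.30 ± 0.12 (unadjusted p = 0.0217, adjusted p = 0.298), and -0.15 without that library. SLIRP, the small RNA-binding partner (chr14:77708071-77717598, plus strand), had 16.7, 21.0 and 26.9 CPM with NC and 35.7, 25.2 and 21.5 CPM with PRDM16. The groups overlapped widely, with a log2 fold change of 0.35 ± 0.23 (adjusted p = 0.432). SLIRP was the 1 member that passed the adjusted test when a library was left out: without the third NC library, its highest NC value, the log2 fold change of SLIRP was 0.54 (edgeR adjusted p = 0.0448). In that fit 173 of 15931 genes passed (1.09%), against 10 with all libraries. Without the first NC library the value was 0.19, and without the first PRDM16 library 0.12.

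In the fusion group 4 of 5 log2 fold changes were below 0, with a median of -0.23, or -0.09 without the second NC library. MFN1, a mitofusin of the outer membrane (chr3:179347709-179394936, plus strand), had 36.5, 48.5 and 33.8 CPM with NC and 32.3, 28.4 and 33.0 CPM with PRDM16. Its PRDM16 values were all below the NC values, though the third library of each group lay within 1 CPM of the other. That gave a log2 fold change of -0.35 ± 0.14 (unadjusted p = 0.018, adjusted p = 0.298), and -0.17 without the second NC library. OPA1, the dynamin-like GTPase that fuses the inner membrane (chr3:193593149-193697811, plus strand), had 74.0, 102.1 and 71.4 CPM with NC and 65.8, 63.6 and 73.7 CPM with PRDM16. Groups overlapped through the third PRDM16 library, and the log2 fold change was -0.29 ± 0.13 (unadjusted p = 0.0392, adjusted p = 0.304). For OPA1 it was -0.10 without the second NC library and -0.03 with the length and GC trend removed. YME1L1, a protease that cleaves OPA1, had 106.0, 144.0 and 118.4 CPM with NC and 105.9, 100.9 and 108.2 CPM with PRDM16. In the third PRDM16 library it was above the lowest NC library, and the log2 fold change was -0.23 ± 0.12 (adjusted p = 0.328), or -0.09 without the second NC library. The stress-activated protease OMA1 had a log2 fold change of -0.09 ± 0.15. MFN2, the far more abundant mitofusin, had one of 0.08 ± 0.12, with an interval from -0.16 to 0.32, and -0.01 without the second NC library.

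Fission genes had 4 of 6 log2 fold changes above 0 and a median of 0.10. Without the first PRDM16 library 2 of 6 were above 0 and the median was -0.07, and on the TPM scale it was -0.04. FIS1 (chr7:101239472-101245081, minus strand) had 94.1, 86.8 and 96.3 CPM with NC and 118.4, 113.9 and 95.4 CPM with PRDM16. The first and second PRDM16 libraries were above every NC library and the third was not. This was a log2 fold change of 0.24 ± 0.12 (unadjusted p = 0.0472, adjusted p = 0.312), and 0.00 once the trend with gene length and GC content was removed. MIEF1, an adaptor that recruits the fission GTPase, had 33.52, 28.98 and 31.06 CPM with NC and 35.98, 34.9 and 34.5 CPM with PRDM16. Its groups did not overlap, with a log2 fold change of 0.17 ± 0.12 (adjusted p = 0.422), but 58.6% of its exon bases are shared with ATF4 on the same strand. DNM1L, the fission GTPase itself, had 36.6, 53.0 and 41.3 CPM with NC and 38.5, 36.3 and 40.4 CPM with PRDM16. The second NC library was high and the other 5 were mixed, and the log2 fold change was -0.18 ± 0.13 (adjusted p = 0.438), or -0.01 without that library.

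MIEF2, the paralog of MIEF1, had the largest fitted log2 fold change of the members and the largest error, 0.71 ± 0.78. Its counts were 69, 67 and 56 with NC and 181, 50 and 96 with PRDM16, so that the value rests on the first PRDM16 library. Without that library the log2 fold change was -0.37. MFF and MTFR1, the remaining fission genes, had log2 fold changes of 0.02 ± 0.12 and -0.14 ± 0.12.

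Among the quality control genes, 5 of 6 log2 fold changes were above 0, with a median of 0.23, or 0.17 without the second NC library, and 3 of the 6 had groups that did not overlap, all higher, against 12.2% of all genes. With the length and GC trend removed the median was 0.06. CLPP, the proteolytic subunit of the matrix protease ClpXP (chr19:6361531-6370242, plus strand), had 74.9, 63.2 and 70.4 CPM with NC and 93.5, 86.8 and 84.2 CPM with PRDM16. Every PRDM16 value was above every NC value by a clear margin. The log2 fold change was 0.34 ± 0.11 (unadjusted p = 0.00543, edgeR adjusted p = 0.287), and 0.28 without the second NC library. PHB2, a scaffold of the inner membrane and a mitophagy receptor (chr12:6965327-6970753, minus strand), had 286.4, 232.8 and 260.1 CPM with NC and 331.1, 327.9 and 291.9 CPM with PRDM16. Its groups were also apart, the third PRDM16 library only just, with a log2 fold change of 0.29 ± 0.12 (unadjusted p = 0.0222, adjusted p = 0.298). PHB2 stood at 0.22 without the second NC library and at 0.09 with the trend removed. PINK1, the kinase that marks damaged mitochondria for removal (chr1:20633458-20651511, plus strand), had 96.7, 86.9 and 102.2 CPM with NC and 118.3, 120.7 and 103.2 CPM with PRDM16. Here too the third PRDM16 library lay next to the NC range, and the log2 fold change was 0.26 ± 0.11 (unadjusted p = 0.0315, adjusted p = 0.3). PHB and LONP1 had log2 fold changes of 0.14 ± 0.12 and 0.21 ± 0.12 with overlapping groups, and CLPX, the unfoldase that feeds CLPP, had one of -0.20 ± 0.14, or -0.05 without the second NC library. With the trend removed LONP1 stood at 0.02, PHB at 0.04 and CLPX at -0.01.

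**Figure D3:**
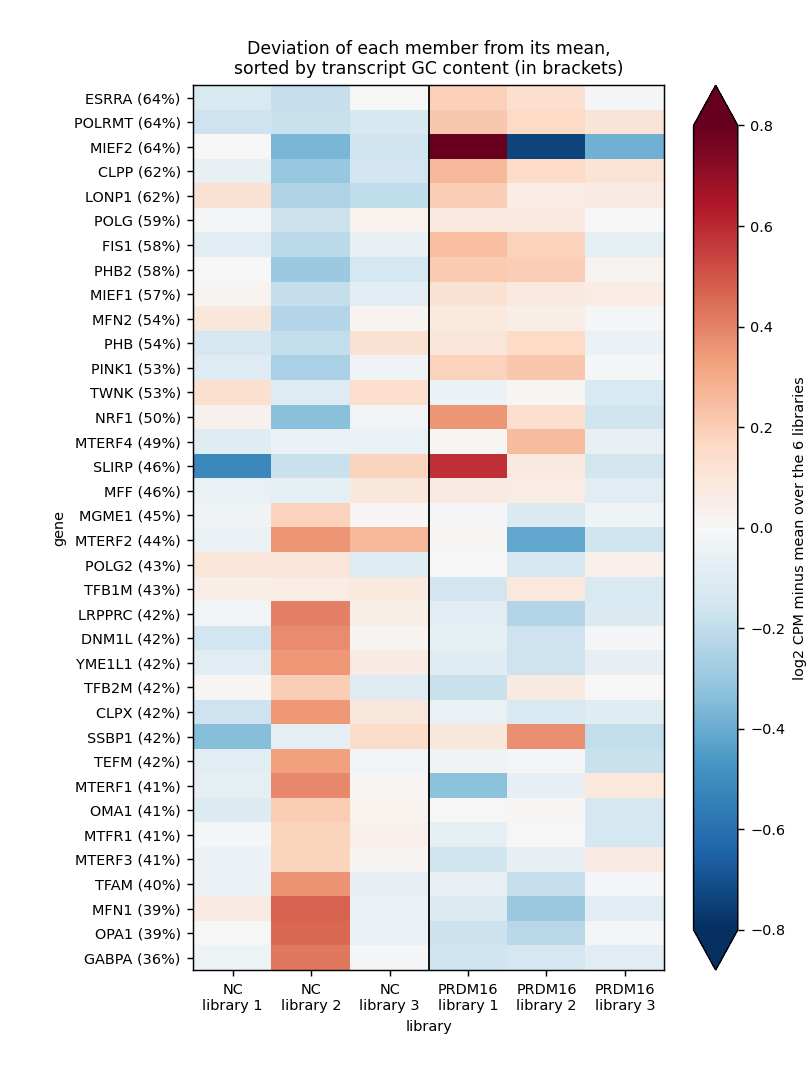
Deviation of each member in each library from its own mean over the 6 libraries, in log2 CPM, with members sorted by transcript GC content. The second NC library has the strongest pattern, high for MFN1, OPA1 and LRPPRC and low for CLPP and PHB2, and the first PRDM16 library stands out for MIEF2.

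The second NC library was the highest of the 6 for 17 members, against 33.4% of all genes, and the lowest for 12, against 32.8%, together 29 of 36 (80.6%), against 66.3% of all genes tested. Which side it took went with the base composition of the gene. Of the 19 members with under 45% GC, it was the highest for 17, and of the 9 members with at least 55% GC it was the lowest for 8. Over all genes tested the corresponding shares were 77.1% and 65.9%.

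The fold changes of the members followed GC content in the same way. Below 45% GC, 18 of 19 members had log2 fold changes below 0, SSBP1 being the exception, with a median of -0.18 beside -0.19 for all genes in that range. From 45% to 55% GC, 7 of 8 were above 0, all but TWNK, with a median of 0.14 beside -0.04 for all genes. At 55% GC or more, all 9 were above 0 (ESRRA, POLRMT, POLG, FIS1, MIEF1, MIEF2, PHB2, LONP1 and CLPP), with a median of 0.24 beside 0.20, and 82.8% of all such genes were above 0. Spearman's rho between log2 fold change and GC content was 0.773 across the 36 members and 0.639 across the 13892 genes with a GC value, a description across genes that share the same 6 libraries. Without the second NC library it was 0.667 for the members and 0.447 for all genes. With the trend over all genes removed it was 0.058 for all genes and still 0.409 for the members.

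**Figure D4:**
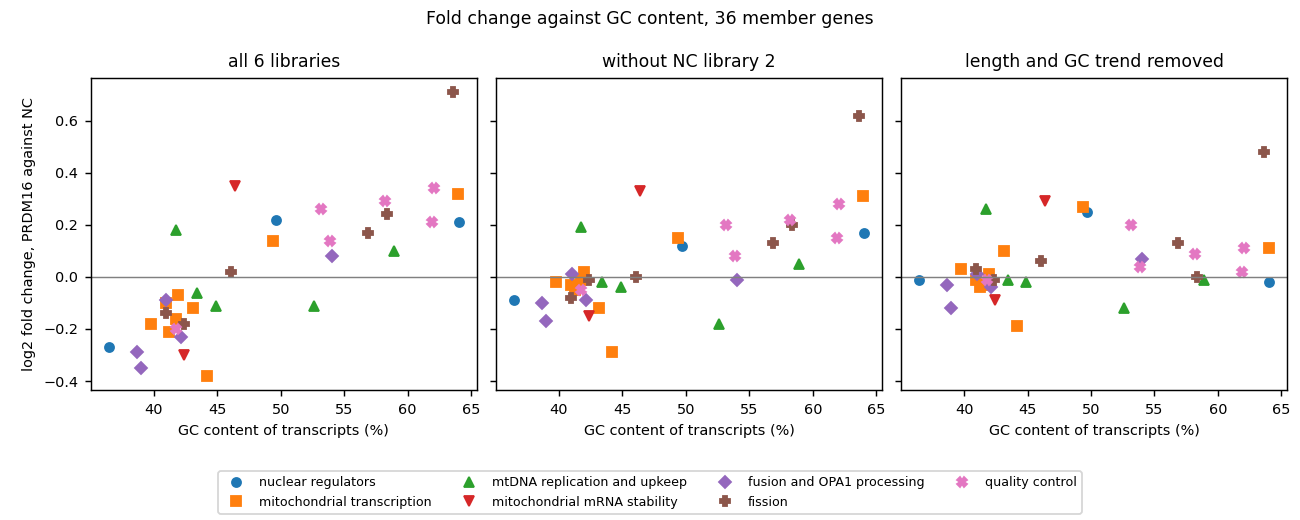
Log2 fold change of each member against the GC content of its transcripts in percent, for all 6 libraries, without the second NC library and with the length and GC trend removed (panels from left to right, symbols by role). In the left panel members below 45% GC lie below 0 except SSBP1 and the 9 at 55% GC or more lie above 0, and the slope is flatter in the other panels.

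The trend with length and GC content over all genes was also removed from each library, without regard to group. A difference between the groups that goes with length or GC content is therefore removed with it. After this the members' median log2 fold change was 0.01, and 19 of 36 were above 0, against 53.1% of all genes. The role medians were then -0.01 for the nuclear regulators, 0.01 for transcription, -0.01 for genome upkeep, 0.10 for messenger RNA stability, -0.03 for fusion, 0.04 for fission and 0.06 for quality control. POLRMT and CLPP each stood at 0.11, MFN1 at -0.12 and LRPPRC at -0.09, all on the same side of 0 as before and nearer to it. Then 2 members were under an unadjusted p of 0.05 (5.56%, against 6.31% of all genes) and 0 under an adjusted p of 0.05 (against 0.0325%). These were PINK1, with a log2 fold change of 0.20 (edgeR unadjusted p = 0.0222), and MTERF4, with one of 0.27 (edgeR unadjusted p = 0.0249). With the second NC library left out as well, no member was under an unadjusted p of 0.05.

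Ratios of partners within a library do not depend on how libraries are scaled. The TPM ratio of MFN2 to MFN1 was 9.40, 5.66 and 9.70 in the NC libraries and 10.6, 11.8 and 9.73 in the PRDM16 libraries. The groups did not overlap, but the third library of each was nearly equal and the second NC library was far below the rest. For CLPP over CLPX the ratios were 10.95, 6.50 and 8.63 with NC and 12.7, 12.3 and 11.8 with PRDM16, again without overlap. POLRMT over TFAM gave 1.17, 0.871 and 1.22 with NC and 1.53, 1.61 and 1.37 with PRDM16, also without overlap and with every PRDM16 library above the highest NC library. The other 7 of the 10 pairs overlapped between groups, among them PHB2 over PHB, POLG over POLG2, FIS1 over DNM1L and LRPPRC over SLIRP. For single genes in CPM, groups did not overlap for 21% of all genes tested, and no such share was computed for other pairs. In the 3 pairs that were apart the upper gene was richer in GC (54.0% and 39.0% for MFN2 and MFN1, 62.1% and 41.8% for CLPP and CLPX, 64.0% and 39.8% for POLRMT and TFAM). Among the pairs that overlapped, GC content was 58.4% and 42.4% for FIS1 and DNM1L and 58.9% and 43.4% for POLG and POLG2. These gaps were near that of MFN2 and MFN1 and smaller than those of CLPP and CLPX and of POLRMT and TFAM. The part of base composition in these ratios was not tested.

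**Figure D5:**
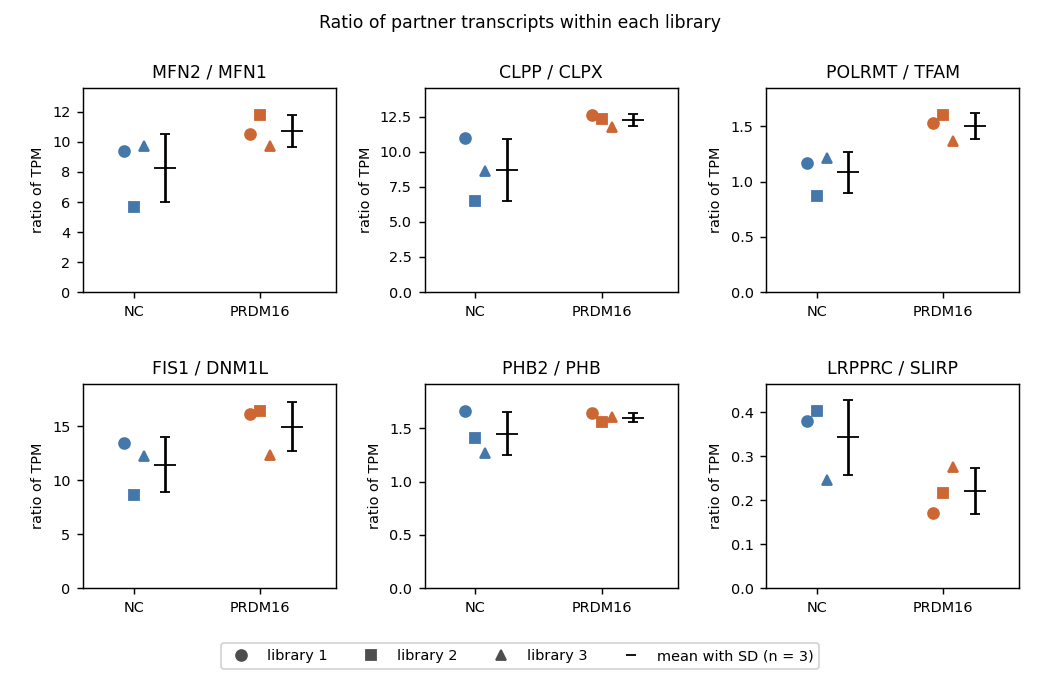
TPM ratios of 6 of the 10 partner pairs within each library (symbols, by library number) with the mean and SD of each group of 3. In the upper row MFN2 over MFN1, CLPP over CLPX and POLRMT over TFAM have groups that do not overlap, with the second NC library lowest in each, and the 3 pairs of the lower row overlap.

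Members with a motif shown above did not share a direction. For the 8 with the NRF1 motif the median log2 fold change was -0.10, 2 being above 0 and 6 below, from -0.29 for OPA1 to 0.32 for POLRMT. The 20 members with a promoter but without this motif had a median of 0.05, with 11 above 0 and 9 below. The 12 with the GABPA motif had a median of 0.16, with 7 above 0 and 5 below, from -0.35 for MFN1 to 0.35 for SLIRP. The 16 without it had a median of -0.10, with 6 above 0 and 10 below. After the length and GC trend was removed, the medians were -0.00 with and 0.00 without the NRF1 motif. For the GABPA motif they were 0.05 with and -0.01 without it. Whether the motifs had a part in these differences was not tested.

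The wider pathway was read through 98 further genes in 5 lists, of which 94 were tested. Genes with too few counts included ESRRB, ABAT and the main listing of DNAJA3. No wider gene passed an adjusted p of 0.05 in edgeR, and 14 (14.9%) had an unadjusted p under 0.05, 12 of them higher and 2 lower with PRDM16, against 16% of all genes. Log2 fold changes were above 0 for 46 and below 0 for 48, with a median of 0.00, and groups did not overlap for 21 (22.3%, against 21% of all genes). The smallest p belonged to MICOS13, a subunit of the complex that shapes the cristae, with 34.7, 35.3 and 39.6 CPM with NC and 53.4, 45.5 and 45.8 CPM with PRDM16. All its PRDM16 values lay above the NC values, and the log2 fold change was 0.40 ± 0.12 (unadjusted p = 0.00299, adjusted p = 0.252), with 0.38 without the second NC library. Its GC content was not found, so the median was used for it when the trend was removed, which gave 0.31.

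RHOT2, which ties mitochondria to the transport motors, had a log2 fold change of 0.31 ± 0.11 (adjusted p = 0.297). With the length and GC trend removed it was 0.06. TBRG4 and HSD17B10, both of mitochondrial RNA processing, had 0.32 ± 0.11 (adjusted p = 0.289) and 0.25 ± 0.11 (adjusted p = 0.303), and ATAD3B, linked to the nucleoid, had 0.30 ± 0.11 (adjusted p = 0.297). These 4 had groups that did not overlap. With the trend removed the values were 0.14 for TBRG4, 0.03 for HSD17B10 and 0.19 for ATAD3B. TYMP, a thymidine phosphorylase, was scarce, at 0.816 to 1.08 CPM with NC and 1.601 to 1.616 CPM with PRDM16 (log2 fold change 0.71 ± 0.25, adjusted p = 0.291, and 0.32 with the trend removed). FKBP8, a mitophagy receptor, had a log2 fold change of 0.25 ± 0.12 (adjusted p = 0.303), and -0.07 once the trend was removed. PGAM5, a mitochondrial phosphatase, had 0.24 ± 0.12 (adjusted p = 0.313), with 0.11 once the trend was removed.

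Of the 12 coactivators and nuclear factors tested, 9 had log2 fold changes below 0, with a median of -0.22. That median was -0.10 without the second NC library and -0.04 with the trend removed. PRKAA2, a catalytic subunit of the energy sensor AMPK, had 40.6, 58.5 and 40.3 CPM with NC and 36.2, 30.5 and 40.0 CPM with PRDM16. Its groups were apart by less than 1 CPM, and the log2 fold change of -0.39 ± 0.15 (adjusted p = 0.298) was -0.18 without the second NC library and -0.06 with the trend removed. SP1, a general activator of GC-rich promoters, had one of -0.23 ± 0.12 (adjusted p = 0.315). PPARGC1A, the coactivator of ESRRA and NRF1, had 8.95, 14.2 and 10.3 CPM with NC and 8.44, 9.12 and 9.82 CPM with PRDM16. Groups overlapped, and the log2 fold change of -0.29 ± 0.16 (adjusted p = 0.346) was -0.06 without the second NC library. Its relative PPARGC1B had 4.60, 5.10 and 6.15 CPM with NC and 3.12, 5.06 and 3.87 CPM with PRDM16. Here the second library of PRDM16 lay inside the NC range, and the log2 fold change was -0.39 ± 0.19 (adjusted p = 0.319). It was -0.40 without the second NC library and -0.40 with the trend removed.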

How the data were processed

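Messenger RNA of 6 samples was captured on oligo(dT) beads and sequenced, per the labels' protocols, and groups and replicate numbers were taken from the titles. The authors deposited raw counts, TPM and FPKM per gene, per the file headers. The deposited FPKM values equal counts over listed length and library total (largest relative deviation 4.16e-07), and the deposited TPM values sum to the same total in each library. Per the submitters' processing notes the genome was hg38. Not given in the sources used here were the aligner, the counter and its strand setting. Broken lines of 7 genes were joined. No gene of the mitochondrial genome was analysed here.

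Differences in counts were tested in R 4.3.3 with edgeR 4.0.16 (quasi-likelihood fit, TMM factors, robust estimation, minimum count 10, minimum total 15, Benjamini-Hochberg adjustment over 15381 genes), which put the common biological coefficient of variation at 0.146. TMM factors also scale the CPM values printed, except those of the marker lists. Libraries differed beyond sampling noise (chi-square per degree of freedom 8.37 to 55.1 over all pairs, 10.55 to 31.18 within a group). Each was counted as 1 sample, though such differences can be technical and do not show separate cultures. GC content is the median over a gene's GENCODE transcripts. For the removal of the trend, log2 CPM deviations were regressed on splines (5 degrees of freedom) of length and GC content, and the fit entered as offsets. Promoters are from RefSeq, GRCh38.p14. The test was checked on simulated data without a trend of GC content or length and without a deviating library. That check cannot speak for these features of the data. DESeq2 1.42.0 and limma 3.58.1 (voom) were alternatives, with other scalings, no filter, a replicate block, summed listings and each library left out.

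The members, lists and tests were chosen with earlier results of these data known. In each role group the 3 members with the smallest p are given in full, with PRDM16, up to 2 genes per wider list, PPARGC1A and PPARGC1B. MIEF2 and the second listing of SSBP1 were singled out after their values were seen. Some genes of the marker and wider lists are not reported here. The SEs and intervals come from the edgeR fit, which shares information on the spread between samples over genes. They are thus not the spread of each gene alone, and the smallest SE of any gene tested was 0.11.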

Additional observations from a re-analysis of the deposited data

How the results depend on the processing

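Over 16 other settings of the fit, 22 of the 36 members kept the sign of their log2 fold change in every one, and 14 changed it at least once, to values of at most 0.10 in size except MIEF2. The deviations of same-numbered libraries from their group means correlated at r = 0.0945, -0.104 and -0.131. Deviations within a group of 3 are tied to each other, so these values cannot decide whether the libraries were paired. The titles give a shared number and no pairing. The fit with the replicate block called 10 genes and 0 members. Of all genes, 10 passed in the fit of the report, 107 with no count filter, 46 by DESeq2, 4 by limma-voom, 18 with listings summed, 5 with the length and GC trend removed and 4 with that and the block. Leaving out 1 library gave 7 to 173 genes (173 without the third NC library, 59 without the second and 20 without the first PRDM16 library) and 0 to 1 member (SLIRP, 0.54). Members at an unadjusted p under 0.05 numbered 2 to 13 when 1 library was left out (2 without the second NC, 5 and 3 without the first and second PRDM16 library), 2 with the trend removed, 1 with the block too and 0 with the second NC library out too. For wider genes these were 6 to 33 (33 and 7 without the first and second NC, 6 and 9 without the first and second PRDM16 library), 3, 5 and 2. The cause was not tested.

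The members' median was -0.08 to 0.00 when 1 library was left out, 0.01 with the trend removed, 0.01 with the block too and 0.00 with the second NC library out too. Role medians with 1 library left out were 0.09 to 0.26 for nuclear regulators, -0.16 to -0.02 for transcription, -0.08 to -0.01 for upkeep, -0.10 to 0.10 for messenger RNA stability, -0.33 to -0.09 for fusion, -0.07 to 0.13 for fission (below 0 without the first PRDM16 library) and 0.17 to 0.29 for quality control. With the trend removed, with the block too, and with the second NC library out too, they were -0.01 each for nuclear regulators, 0.01 each for transcription, -0.03, -0.03 and -0.01 for fusion, and 0.06, 0.06 and 0.05 for quality control. For upkeep the first and second of these were -0.01.

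Signs turned with the trend removed, alone and with the block, for ESRRA (-0.02), TFAM (0.03), TFB1M (0.10), TFB2M (0.01), POLG (-0.01), OMA1 (0.01), FIS1 (0.00 and -0.01), MTFR1 (0.03 and 0.02) and FKBP8 (-0.07). With the trend and the second NC library out together they turned for ESRRA (-0.01), TFAM (0.05), TFB2M (0.01), TEFM (0.01), POLG (-0.03), MFN2 (0.00), DNM1L (0.04), MFF (0.00), CLPX (0.00), FKBP8 (-0.06) and PPARGC1A (0.03). Leaving out 1 library gave -0.13 to 0.02 for TFB2M, -0.01 to 0.14 for MFN2 and -0.17 to 0.01 for OMA1, the sign turning without the second NC library. It gave 0.00 to 0.08 for MFF, turning without the first or second NC or the first PRDM16 library, and -0.37 to 1.10 for MIEF2, turning without the first PRDM16 library. The log2 fold change of PRDM16 had an adjusted p of 0.106 with trend and block and of 0.0814 with the trend and the second NC library out.

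The deposited TPM scale was added after its plot was seen. There the members' median was -0.21, and role medians were 0.07 for nuclear regulators, -0.26 for transcription, -0.20 for upkeep, -0.12 for messenger RNA stability (0.02 in the fit), -0.37 for fusion, -0.04 for fission and 0.09 for quality control, beside -0.16 for all genes. Signs turned for MTERF4 (0.00), POLG (-0.03), MFN2 (-0.06), MFF (-0.11) and PHB (0.00).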
